A study of Mus musculus with 9 samples.

Results

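The genes described here encode the granule proteases, receptors, histamine enzyme and a transcription factor of mast cells. They were chosen by name: the proteases Cpa3, Mcpt4, Cma1 and Tpsb2, the receptors Kit and Ms4a2, the histidine decarboxylase gene Hdc and the transcription factor gene Gata2. All 8 symbols were found among the 20603 genes of a table of read counts from mouse conjunctiva, the mucous membrane of the eyelids and eye. Of the 8, 7 had enough counts to be tested, and Ms4a2 did not.

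Each of 9 libraries held messenger RNA from the pooled conjunctiva of 3 mice, and each of 3 groups had 3 such pools. The groups were challenged Vegfr3iLECko, challenged Ctrl and unchallenged Ctrl. Ctrl mice were Vegfr3 fl/fl littermates. Vegfr3iLECko mice were Vegfr3 fl/fl and also carried Prox1CreERT2, a Cre recombinase that is switched on by tamoxifen and made where Prox1 is active, chiefly in lymphatic endothelium. The deletion was thus aimed at lymphatic vessels and not at mast cells. All groups shared the C57BL/6j background, the floxed allele, 5 tamoxifen injections of 75 mg/kg at week 5, and immunization at week 6. Immunization was with ovalbumin (250 μg), pertussis toxin (0.3 μg) and aluminum hydroxide (5 mg), so the unchallenged mice were sensitized and not naive. Challenge was a daily ovalbumin drop (250 μg in 5 μL) for 28 days, which began 14 days after immunization. The eye and the mice that gave the unchallenged pools are not named in the labels, and no unchallenged Vegfr3iLECko pools were analysed here, so genotypes were compared only under challenge.

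Mast cells are long-lived tissue cells that store proteases, histamine and heparin in granules and release them when antigen cross-links IgE on their surface. In allergic conjunctivitis this release is known to cause itch and redness. Connective tissue mast cells of the mouse are known for chymases such as Mcpt4 and Cma1, the tryptase Tpsb2 and the carboxypeptidase Cpa3. They need the Kit receptor for survival and the transcription factor GATA2 for their identity. In bulk tissue, fewer mast cells and less RNA per mast cell cannot be told apart.

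Libraries held 16490050 to 24746836 counts. Levels are given as CPM, the count scaled to the size of its library, and a count of 0 allows up to 3 counts, or 0.115 to 0.185 CPM. Counting intervals and floors cover counting error only. Flt4, the symbol of Vegfr3, was at 13.0, 5.07 and 5.32 CPM in challenged Vegfr3iLECko pools 1 to 3, against 13.4, 20.3 and 20.1 CPM in challenged Ctrl pools. In unchallenged Ctrl pools it was at 18.5, 26.8 and 13.5 CPM. Every Vegfr3iLECko pool lay below every Ctrl pool, pool 1 by little, and by genotype its edgeR log2 fold change of -1.20 (SE 0.40, adjusted p = 0.468) was not called. Markers of conjunctival epithelium marked all 9 pools: the 10 genes of that list summed to 20159 to 34828 CPM in challenged Vegfr3iLECko, 19753 to 30637 CPM in challenged Ctrl and 19138 to 28851 CPM in unchallenged Ctrl pools.

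The regions around the transcription starts of the proteases Cpa3, Mcpt4 and Cma1 are shown. No region was matched for the protease Tpsb2, which varied together with these 3. The GATA motif, in the letters searched here, was found in some of the regions shown and not in others. Each runs 5′ to 3′ from 250 bases before the start to 50 bases after it, on the minus strand, as given by RefSeq on GRCm38.p6. They lie at chr3:20242132-20242431 (Cpa3), chr14:56062261-56062560 (Mcpt4) and chr14:55944626-55944925 (Cma1). Capitals mark the GATA motif (AGATAA or TGATAA) and the TATA motif (TATAAA), on either strand. Other letter forms that GATA factors read were not searched, so a region without a marked GATA motif may still hold a GATA site.
Cpa3: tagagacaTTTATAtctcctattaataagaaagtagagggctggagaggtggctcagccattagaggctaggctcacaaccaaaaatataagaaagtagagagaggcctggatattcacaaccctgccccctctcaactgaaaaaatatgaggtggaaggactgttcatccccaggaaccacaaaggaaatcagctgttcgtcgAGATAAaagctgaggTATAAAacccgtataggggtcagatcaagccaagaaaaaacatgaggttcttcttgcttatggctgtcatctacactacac
Mcpt4: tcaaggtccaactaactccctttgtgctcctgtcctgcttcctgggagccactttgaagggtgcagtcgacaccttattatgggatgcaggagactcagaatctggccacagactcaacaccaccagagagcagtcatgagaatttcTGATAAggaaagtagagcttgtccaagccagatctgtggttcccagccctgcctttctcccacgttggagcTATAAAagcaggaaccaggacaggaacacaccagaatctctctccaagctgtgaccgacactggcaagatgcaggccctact
Cma1: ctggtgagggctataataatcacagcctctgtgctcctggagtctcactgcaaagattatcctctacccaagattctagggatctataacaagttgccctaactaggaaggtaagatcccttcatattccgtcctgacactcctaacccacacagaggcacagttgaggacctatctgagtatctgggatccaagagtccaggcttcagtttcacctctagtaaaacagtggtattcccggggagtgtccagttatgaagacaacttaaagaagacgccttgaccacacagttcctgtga

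In the Cpa3 region a GATA motif began 46 bases before the start and a TATA motif 31 bases before it, with a further TATA motif on the other strand at 242 bases. In the Mcpt4 region the GATA motif began at 103 bases and the TATA motif at 32 bases before the start. The Cma1 region held neither motif in these letters. It does hold ctatct, which reads AGATAG on the other strand, a GATA form that was not searched. Cma1 varied with Cpa3 and Mcpt4 across the pools, and whether any of these motifs bears on their levels was not tested. The Ms4a2 region held 3 GATA motifs, at 224, 37 and 11 bases before the start. RefSeq regions were matched for 7 of the 8 genes, all but Tpsb2, as 9 regions in all. Kit and Gata2 had 2 each, and the 2 of Kit overlap almost wholly, so the 9 are not all separate. In the letters searched, 3 of the 9 held a GATA motif and 2 a TATA motif. Of 32851 mouse regions of the same kind, 18.6% held a GATA motif, 3.26% held 2 or more, and 13.6% held a TATA motif. The E-box read by factors of the MITF kind (CATGTG or CACGTG) was in 0 of the 9 and in 20.4% of all regions. No pair of these motifs shares bases in the matches given. A match describes letters only, and says nothing of binding.

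Cpa3, Mcpt4 and Cma1 differed several-fold between challenged Vegfr3iLECko pools and less between Ctrl pools, and for none of the 4 granule proteases did a group stand apart. Cpa3 encodes mast cell carboxypeptidase A. It was at 13.5, 3.54 and 3.37 CPM in challenged Vegfr3iLECko pools 1 to 3, 6.93, 13.0 and 6.84 CPM in challenged Ctrl pools, and 10.5, 7.04 and 4.46 CPM in unchallenged Ctrl pools. The groups overlapped, and Vegfr3iLECko pool 1 alone was higher than all Ctrl pools while the other Vegfr3iLECko pools were lower than all of them. The counts behind these values were 346, 60 and 59 in the Vegfr3iLECko pools, and the 95% Poisson intervals of the level were 12.1 to 15.0 CPM in pool 1, 2.70 to 4.56 CPM in pool 2 and 2.57 to 4.35 CPM in pool 3. Group means were 6.79 ± 5.78 CPM in challenged Vegfr3iLECko, 8.92 ± 3.53 CPM in challenged Ctrl and 7.32 ± 3.01 CPM in unchallenged Ctrl (SD, n = 3 pools each).

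Mcpt4, the chymase that carries most chymase activity of connective tissue mast cells in the mouse, had the same highest and lowest pools. It was at 16.2, 9.55 and 3.55 CPM in challenged Vegfr3iLECko pools, 8.66, 15.8 and 11.7 CPM in challenged Ctrl pools and 10.6, 10.9 and 9.92 CPM in unchallenged Ctrl pools. The unchallenged pools were close together, and the Vegfr3iLECko pools spanned the values of all other pools. Cma1, a chymase gene known for its elastase-like product, was at 12.4, 7.20 and 3.83 CPM in challenged Vegfr3iLECko pools. It was at 8.16, 12.4 and 9.58 CPM in challenged Ctrl pools and at 8.42, 6.55 and 6.93 CPM in unchallenged Ctrl pools. Vegfr3iLECko pool 3 was again lowest, and the groups overlapped.

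Tpsb2, a tryptase stored with heparin, varied least of the 4 proteases. It was at 12.1, 8.96 and 7.49 CPM in challenged Vegfr3iLECko pools, 8.35, 13.7 and 11.6 CPM in challenged Ctrl pools and 10.5, 9.73 and 11.9 CPM in unchallenged Ctrl pools. Its highest pool exceeded its lowest 1.82-fold, compared with 3.99-fold for Cpa3, 4.56-fold for Mcpt4 and 3.24-fold for Cma1. For all 4 proteases the lowest of the 9 pools was Vegfr3iLECko pool 3, and the pair of highest pools was Vegfr3iLECko pool 1 and challenged Ctrl pool 2.

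**Figure D1:**
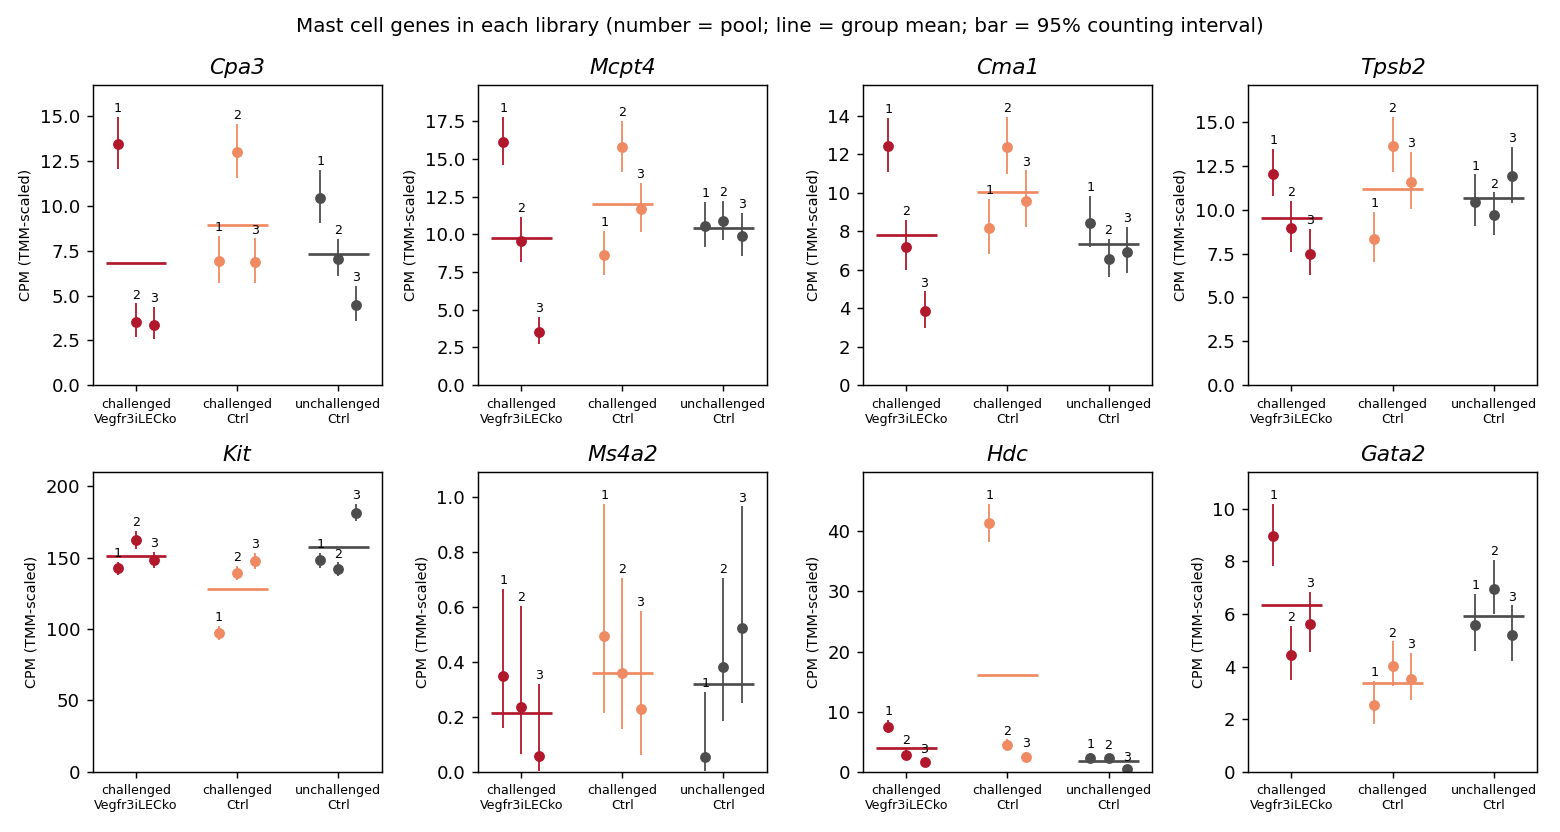
Level of each of the 8 mast cell genes in each pool (y axis, TMM-scaled CPM), with challenged Vegfr3iLECko, challenged Ctrl and unchallenged Ctrl from left to right. Points are pools with their number, bars are 95% Poisson counting intervals and lines are group means; Cpa3, Mcpt4 and Cma1 spread widely between the Vegfr3iLECko pools, Hdc was high in challenged Ctrl pool 1 (41.3 CPM) and Gata2 was low in all challenged Ctrl pools.

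Neither challenge nor genotype changed a protease past the test. In edgeR's quasi-likelihood fit, 0 of the 7 tested genes passed an adjusted p of 0.05 with challenge, where 0.064% of all 15613 genes passed (10 genes). With challenge, as challenged Ctrl over unchallenged Ctrl, the log2 fold change was 0.29 for Cpa3 (SE 0.56, adjusted p = 0.922), 0.21 for Mcpt4 (SE 0.45, adjusted p = 0.933) and 0.46 for Cma1 (SE 0.38, adjusted p = 0.727). That of Tpsb2 was 0.067 (SE 0.26, adjusted p = 0.967), with a 95% interval of the fold change from 0.700 to 1.57. The interval was wider for Cpa3 (log2 -0.96 to 1.54), where 3 pools a group left the change little bounded. Without challenged Ctrl pool 2 the log2 fold change was -0.093 for Cpa3, -0.048 for Mcpt4 and -0.11 for Tpsb2. With the replicate number as a block, 267 genes passed with challenge (10 without the block), and again 0 of the 7.

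By genotype, as challenged Vegfr3iLECko over challenged Ctrl, 0 of the 7 passed and 0% of all genes did in the edgeR test. At an unadjusted p under 0.05 there were 1325 genes (8.49%), and DESeq2 called 242 genes and none of the 7. The log2 fold changes were -0.39 for Cpa3 (SE 0.56, adjusted p = 0.851), -0.30 for Mcpt4 (SE 0.45, adjusted p = 0.853), -0.36 for Cma1 (SE 0.38, adjusted p = 0.801) and -0.24 for Tpsb2 (SE 0.26, adjusted p = 0.806). These values depended on single pools. Without Vegfr3iLECko pool 1 they lay farther below 0, at -1.37 for Cpa3, -0.88 for Mcpt4 and -0.86 for Cma1, and none passed. Without Vegfr3iLECko pool 3 that of Mcpt4 was 0.096. Between challenged Vegfr3iLECko and unchallenged Ctrl, 0 of the 7 and 0% of all genes passed by edgeR, with 452 genes (2.9%) at an unadjusted p under 0.05 and 14 by DESeq2. There the log2 fold changes of the proteases were -0.17 for Tpsb2, -0.099 for Cpa3, -0.096 for Mcpt4 and 0.10 for Cma1, each with an adjusted p of 0.999. The comparisons share pools and are not independent of each other.

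**Figure D2:**
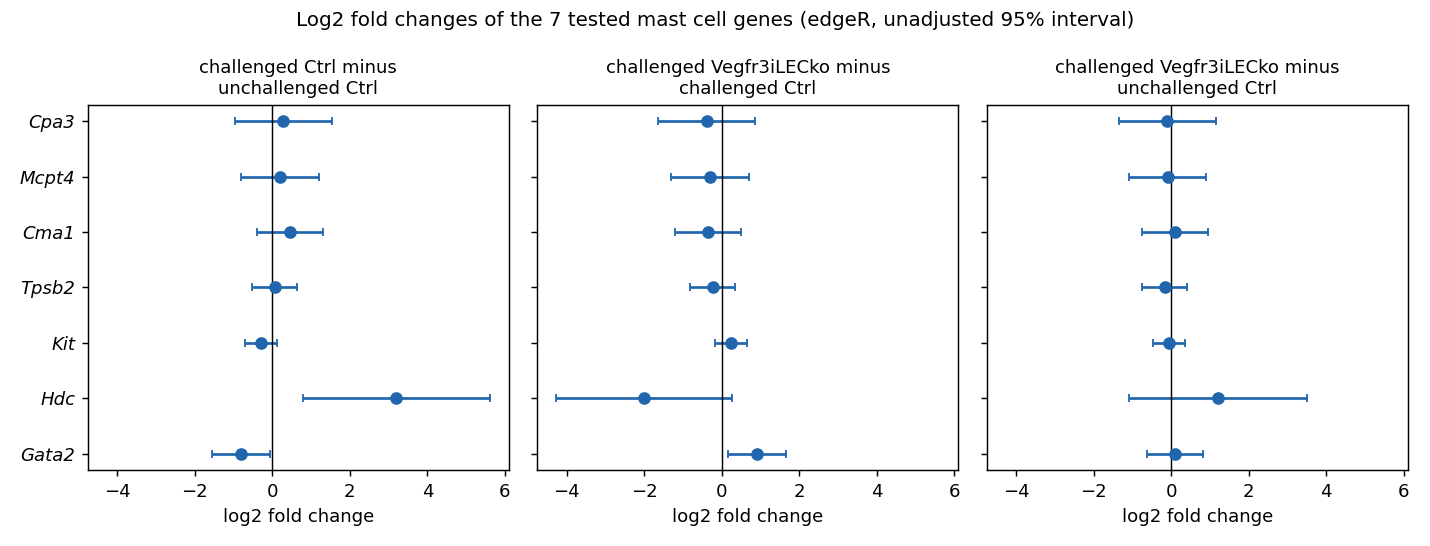
Log2 fold changes (x axis) of the 7 tested mast cell genes for challenged Ctrl over unchallenged Ctrl, challenged Vegfr3iLECko over challenged Ctrl and challenged Vegfr3iLECko over unchallenged Ctrl. Points are edgeR estimates and bars their unadjusted 95% intervals. Intervals of the 4 proteases and of Kit include 0 in every comparison. Among the 7 genes, the estimates of Hdc and Gata2 lie farthest from 0 with challenge (3.20 and -0.81). The intervals of both exclude 0 there, and that of Gata2 also does by genotype (0.17 to 1.65), but none of the 7 was called.

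The proteases varied together from pool to pool. Over the 9 pools, Pearson's r of log2 CPM between 2 of the proteases was 0.667 to 0.935 in the 6 pairs, and Spearman's rho was 0.667 to 0.867. After group means were removed, r was 0.621 to 0.968. Without the 2 pools farthest from the median, r was 0.362 to 0.838, so part of the likeness rested on the extreme pools. Pools share a library and its depth among all genes, so these values are descriptions.

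Summed over the 4 proteases, the level was 54.1, 29.3 and 18.2 CPM in challenged Vegfr3iLECko pools, against 32.1, 54.8 and 39.7 CPM in challenged Ctrl pools. In unchallenged Ctrl pools it was 39.9, 34.2 and 33.2 CPM. The proteases did not keep a fixed ratio. Cma1 took 19.1% to 25.4% of the counts of the 4, the narrowest range, and Cpa3 took 12.1% to 26.2%. Tpsb2 took 41.1% (95% exact binomial interval 35.6 to 46.7) in Vegfr3iLECko pool 3, where the sum was lowest, and 22.3% (20.1 to 24.6) in Vegfr3iLECko pool 1.

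Fibroblast markers were compared with the proteases pool by pool. The 6 genes of that list, all detected in every pool, summed to 8445, 4626 and 3361 CPM in challenged Vegfr3iLECko pools 1 to 3 and 6593, 9262 and 7799 CPM in challenged Ctrl pools. In unchallenged Ctrl pools they summed to 6750, 11590 and 10005 CPM. Pearson's r between the mean log2 CPM of the fibroblast markers and that of the proteases was 0.75 over the 9 pools and 0.40 without the 2 farthest. For single proteases without the 2 farthest pools it was 0.033 for Cpa3, 0.034 for Cma1, 0.39 for Mcpt4 and 0.40 for Tpsb2. After group means were removed r was 0.81 for the mean of the proteases, 0.83 for Mcpt4, 0.77 for Cma1, 0.70 for Cpa3 and 0.66 for Tpsb2. Among unchallenged Ctrl pools the order differed, with the highest protease sum in pool 1, where the fibroblast sum was lowest. Vegfr3iLECko pool 3 was lowest in both sums, and the part of fibroblast content in the protease differences was not tested. Fibroblast markers were not the only list close to the mean of the proteases. With 5 histamine handling and receptor genes r was 0.75, or 0.43 without the 2 farthest pools and 0.73 after group means were removed. With 10 other mast cell receptor genes it was 0.62, with 3 eosinophil markers 0.57 and with 7 T cell markers 0.21. The part of these lists was not tested. With the 2 tested basophil markers, Itga2 and Il3ra, which other cells also express, r was 0.77 (0.51 without the 2 farthest). Prss34, a basophil protease gene, had 0 to 3 counts in each of the 9 libraries, and Cd200r3 had 0 to 13. Mcpt8, also on the basophil list, was not analysed here.

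**Figure D3:**
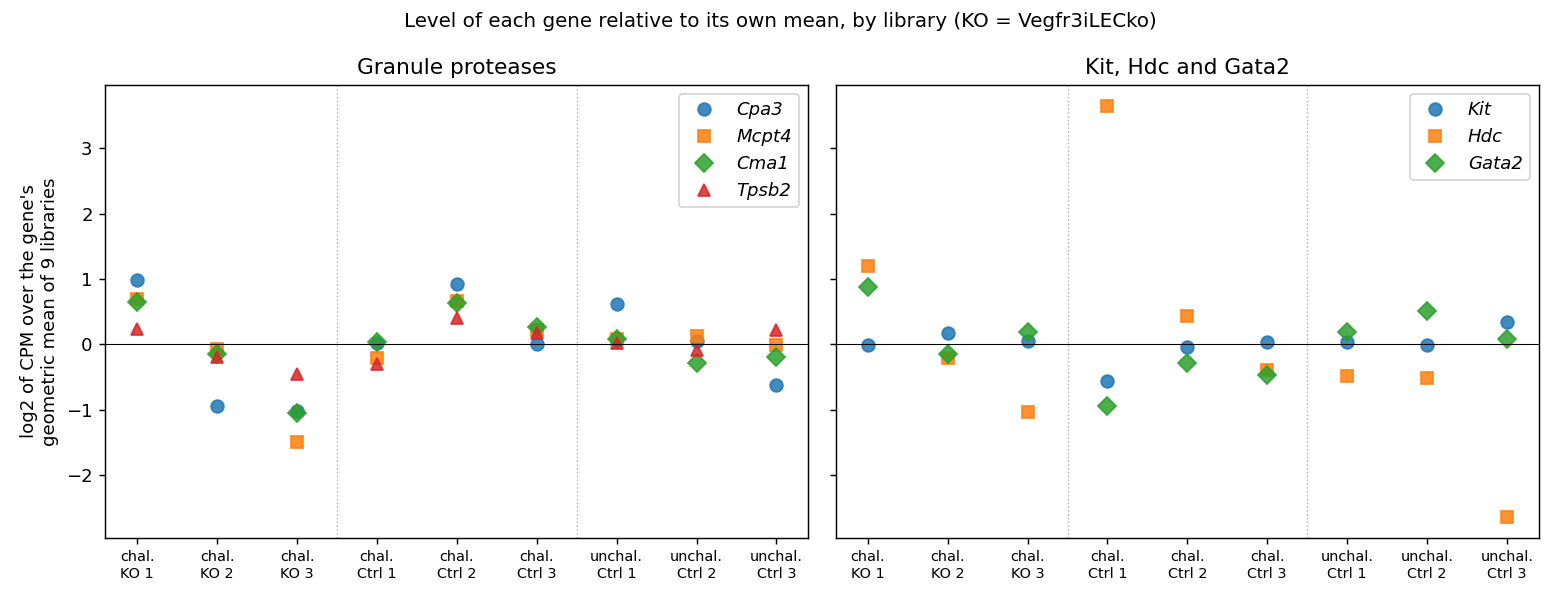
Level of each gene relative to its own geometric mean over the 9 pools (y axis, log2), by pool (x axis; challenged Vegfr3iLECko, challenged Ctrl, unchallenged Ctrl). In the left panel the 4 proteases are all above 0 in Vegfr3iLECko pool 1 and challenged Ctrl pool 2 and all below 0 in Vegfr3iLECko pool 3; in the right panel Kit, Hdc and Gata2 follow other orders.

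The genes whose pattern over the pools was most like that of Cpa3 were not mast cell granule genes. Among 14157 tested genes outside the 8 with a mean of at least 1 CPM, the highest Pearson's r of log2 CPM with Cpa3 belonged to Gm52981 (0.96), Efcab7 (0.95), Ccdc93 (0.95) and Nrp1 (0.94). Next came Ntrk3 (0.94), Slc36a1 (0.93), Lsp1 (0.93) and F13a1 (0.92). Nrp1 encodes a co-receptor of VEGF and semaphorins, Ntrk3 a neurotrophin receptor, and F13a1 the coagulation factor XIII A chain of macrophages and platelets. When the 7 tested mast cell genes are counted in, Cma1 ranked 154th, Mcpt4 463rd and Tpsb2 1196th in likeness to Cpa3 among 14163 genes, and Kit ranked 9850th. Such ranks over 9 pools describe these libraries only.

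Kit encodes the receptor for stem cell factor, on which mast cells depend, and it is also expressed by melanocytes and other cells. It was the most abundant of the 8 genes and was called in no comparison. It was at 143, 162 and 148 CPM in challenged Vegfr3iLECko pools, 97.3, 139 and 147 CPM in challenged Ctrl pools and 148, 142 and 182 CPM in unchallenged Ctrl pools. Challenged Ctrl pool 1 was lowest and the groups overlapped. With challenge the log2 fold change in the edgeR fit was -0.30 (SE 0.18, 95% interval -0.70 to 0.11, adjusted p = 0.603). By genotype it was 0.24 (SE 0.18, 95% interval -0.17 to 0.65, adjusted p = 0.745). Between challenged Vegfr3iLECko and unchallenged Ctrl it was -0.058 (95% interval -0.47 to 0.35).

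Kit had no close tie to the proteases over the 9 pools. Pearson's r between Kit and each of the 4 was -0.31 to 0.32, and Spearman's rho was -0.63 to -0.12. After group means were removed r was -0.19 to 0.59, and without the 2 farthest pools -0.23 to 0.61, highest with Tpsb2 each time. In Vegfr3iLECko pool 3, where all 4 proteases were lowest, Kit was at its own group's middle value. Per kilobase of exon, Kit was at 28.8 ± 1.94 CPM in challenged Vegfr3iLECko, 24.4 ± 5.13 CPM in challenged Ctrl and 29.9 ± 4.06 CPM in unchallenged Ctrl (SD, n = 3). Mcpt4, the next gene per kilobase, was at 8.80 ± 5.69 CPM in challenged Vegfr3iLECko, 10.9 ± 3.22 CPM in challenged Ctrl and 9.44 ± 0.439 CPM in unchallenged Ctrl. Per length, the Kit mean was above that of every protease in each group. Melanocyte markers were low: Dct had 74 counts in Vegfr3iLECko pool 1, 35 in unchallenged Ctrl pool 2 and 0 to 5 in the other pools. The 6 genes of the melanocyte list summed to 4.80 to 11.7 CPM in challenged Vegfr3iLECko, 4.27 to 6.95 CPM in challenged Ctrl and 5.13 to 7.70 CPM in unchallenged Ctrl. Which cells carried the Kit reads was not tested. Kitl, the gene of the Kit ligand, was at 46.3, 41.1 and 45.7 CPM in challenged Vegfr3iLECko pools, 50.4, 42.9 and 38.9 CPM in challenged Ctrl pools and 59.8, 49.1 and 44.6 CPM in unchallenged Ctrl pools.

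Per kilobase in unchallenged Ctrl pools, the order of levels was Kit, Mcpt4, Tpsb2, Cma1, Cpa3, Gata2, Hdc and Ms4a2. Tpsb2 (6.71 ± 0.699 CPM per kilobase), Cma1 (6.70 ± 0.910) and Cpa3 (5.05 ± 2.08) overlapped there and did not differ beyond their spread. Gata2 was at 1.61 ± 0.252, Hdc at 0.721 ± 0.435 and Ms4a2 at 0.114 ± 0.0862 CPM per kilobase (SD, n = 3). In challenged Ctrl pools Hdc averaged 6.73 ± 9.14 CPM per kilobase, an SD above its mean.

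Ms4a2 encodes the beta chain of the high-affinity IgE receptor, the chain that is most restricted to mast cells and basophils. It had too few counts for a test: 9, 4 and 1 counts in challenged Vegfr3iLECko pools, 8, 8 and 4 in challenged Ctrl pools and 1, 10 and 10 in unchallenged Ctrl pools. The groups overlapped. The sums were 14 counts in challenged Vegfr3iLECko (95% Poisson interval 7.65 to 23.5), 20 in challenged Ctrl (12.2 to 30.9) and 21 in unchallenged Ctrl (13.0 to 32.1), and the intervals overlap. In a fit without a count filter Ms4a2 had a log2 fold change with challenge of 0.14 (SE 0.89, adjusted p = 0.989), and by genotype of -0.68 (SE 0.91, adjusted p = 0.872). With so few counts and this spread between pools, the data do not show whether Ms4a2 differed between groups.

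The partners of Ms4a2 in the receptor differed widely in level. Fcer1a, the IgE-binding chain, had 24, 11 and 7 counts in challenged Vegfr3iLECko pools, 15, 38 and 2 in challenged Ctrl pools and 17, 8 and 10 in unchallenged Ctrl pools. Fcer1g, the gamma chain that many myeloid cells share, was at 32.2, 20.6 and 19.7 CPM in challenged Vegfr3iLECko pools. It was at 47.6, 31.2 and 26.7 CPM in challenged Ctrl pools and at 27.2, 21.2 and 10.9 CPM in unchallenged Ctrl pools. The groups overlapped for both genes. For Fcer1g the log2 fold change with challenge was 0.83 (SE 0.35, adjusted p = 0.367), and by genotype it was -0.54 (SE 0.35, adjusted p = 0.711). Mrgprb2, the receptor through which mast cells of the mouse answer to basic peptides, had 0 to 16 counts a pool. The related gene Mrgprb1 had 52, 9 and 18 counts in challenged Vegfr3iLECko pools, 30, 61 and 24 in challenged Ctrl pools and 32, 34 and 16 in unchallenged Ctrl pools. Its highest pools were again challenged Ctrl pool 2 and Vegfr3iLECko pool 1.

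Hdc encodes histidine decarboxylase, the enzyme that makes histamine, and it is known to be expressed by basophils and myeloid cells as well as by mast cells. It had the widest range of the 8 genes, with its highest pool 78.7-fold above its lowest. It was at 7.51, 2.83 and 1.60 CPM in challenged Vegfr3iLECko pools, 41.3, 4.44 and 2.51 CPM in challenged Ctrl pools and 2.35, 2.30 and 0.525 CPM in unchallenged Ctrl pools. Challenged Ctrl pool 1 stood far above all others. In each group Hdc fell from pool 1 to pool 3, and the labels do not say what the pool numbers mark. Every challenged Ctrl pool was above every unchallenged Ctrl pool, the lowest by little (2.51 against 2.35 CPM), and the Vegfr3iLECko pools overlapped both Ctrl groups. Hdc averaged 3.98 ± 3.12 CPM in challenged Vegfr3iLECko, 16.1 ± 21.9 CPM in challenged Ctrl and 1.73 ± 1.04 CPM in unchallenged Ctrl (SD, n = 3).

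With challenge, Hdc had a log2 fold change of 3.20 (SE 1.08), or 9.22-fold, which was not called (adjusted p = 0.233, unadjusted p = 0.0141). An unadjusted p under 0.05 was found in 12.4% of all genes. Without challenged Ctrl pool 1 it was 1.01 (SE 0.74, adjusted p = 0.866). With the replicate block its adjusted p was 0.0731, the lowest of any of the 7 genes in any fit. By genotype the log2 fold change was -1.996 (SE 1.01, adjusted p = 0.636), and 0.20 without challenged Ctrl pool 1. Against unchallenged Ctrl the Vegfr3iLECko pools gave 1.21 (SE 1.03, adjusted p = 0.999).

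Neutrophil markers were high in the same pool as Hdc. The 6 measured genes of that list summed to 276, 53.1 and 35.1 CPM in challenged Vegfr3iLECko pools, 421, 75.0 and 25.8 CPM in challenged Ctrl pools and 98.1, 50.4 and 14.6 CPM in unchallenged Ctrl pools. Like Hdc, the sum fell from the first to the last numbered pool in each group. Of its genes, S100a8 had 13 to 1790 counts a pool and S100a9 174 to 4006, so neither was at 0 anywhere. Ly6g, also on that list, was not analysed here. Pearson's r between Hdc and the mean log2 CPM of the 5 tested neutrophil markers was 0.92 over the 9 pools and 0.84 without the 2 farthest. Other lists correlated with Hdc about as closely, among them 7 other mast cell transcription factor genes (r = 0.97), 7 lipid mediator genes (0.91), the 16 signalling genes (0.90) and 3 eosinophil markers (0.84). The eosinophil markers Ccr3, Siglecf and Ear2 summed to 16.9, 13.1 and 3.77 CPM in challenged Vegfr3iLECko pools, 30.4, 23.4 and 13.2 CPM in challenged Ctrl pools and 11.9, 5.09 and 3.20 CPM in unchallenged Ctrl pools. Epx and Prg2 were not analysed here. The part of any of these lists in the Hdc difference was not tested. The proteases were not raised in challenged Ctrl pool 1, where their sum was 32.1 CPM, within the range of the other pools. Genes with a pattern like that of Hdc, chosen after values were seen, were led by Csf2rb (r = 0.99), Ccl9 (0.98) and Csf2rb2 (0.98). Csf2rb encodes the common beta chain of the IL-3, IL-5 and GM-CSF receptors. It was at 30.0, 11.1 and 6.29 CPM in challenged Vegfr3iLECko pools, 141, 20.6 and 13.3 CPM in challenged Ctrl pools and 10.6, 12.8 and 4.57 CPM in unchallenged Ctrl pools.

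Gata2 encodes a transcription factor that mast cells need and that blood endothelium also expresses. It was lower in challenged Ctrl pools than in all other pools. It was at 8.95, 4.42 and 5.60 CPM in challenged Vegfr3iLECko pools, 2.54, 4.03 and 3.54 CPM in challenged Ctrl pools and 5.60, 6.97 and 5.20 CPM in unchallenged Ctrl pools. The highest challenged Ctrl pool (4.03 CPM) lay just below the lowest Vegfr3iLECko pool (4.42 CPM). Group means were 6.33 ± 2.35 CPM in challenged Vegfr3iLECko, 3.37 ± 0.763 CPM in challenged Ctrl and 5.92 ± 0.929 CPM in unchallenged Ctrl (SD, n = 3). With challenge its log2 fold change of -0.81 (SE 0.33, adjusted p = 0.344) did not pass, nor did that by genotype of 0.91 (SE 0.33, adjusted p = 0.501). Without any single pool it stayed between -0.97 and -0.64 with challenge and between 0.57 and 1.11 by genotype, the lowest being without Vegfr3iLECko pool 1. Between challenged Vegfr3iLECko and unchallenged Ctrl it was 0.098 (SE 0.33, adjusted p = 0.999).

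Of the 7 tested genes, 2 had groups that did not overlap with challenge, against 15.7% of all genes. They were Hdc, higher as in 7.21% of all genes, and Gata2, lower as in 8.5%. By genotype Gata2 was the single one of the 7, against 12.9% of all genes, and it was higher as in 6.7%. Between challenged Vegfr3iLECko and unchallenged Ctrl 0 of the 7 were apart, against 6.59% of all genes. Against these shares the counts are no result about mast cell genes as a set.

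Markers of several other cell types were correlated with Gata2. The 8 genes of the endothelial list summed to 299, 128 and 178 CPM in challenged Vegfr3iLECko pools, 145, 171 and 136 CPM in challenged Ctrl pools and 219, 294 and 184 CPM in unchallenged Ctrl pools. Pearson's r between Gata2 and the mean log2 CPM of the 8 genes was 0.84 over the 9 pools, 0.95 without the 2 farthest and 0.76 after group means were removed. Muscle markers summed to 1671 to 1952 CPM in challenged Vegfr3iLECko, 248 to 621 CPM in challenged Ctrl and 1002 to 3897 CPM in unchallenged Ctrl (r with Gata2 0.72, and 0.13 after group means were removed). For the 7 T cell markers r was -0.84, and -0.74 after group means were removed. Their part in the Gata2 difference was not tested. Gata2 had no close tie to the proteases, with r of -0.046 to 0.19, although after group means were removed r was 0.58 to 0.78.

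**Figure D4:**
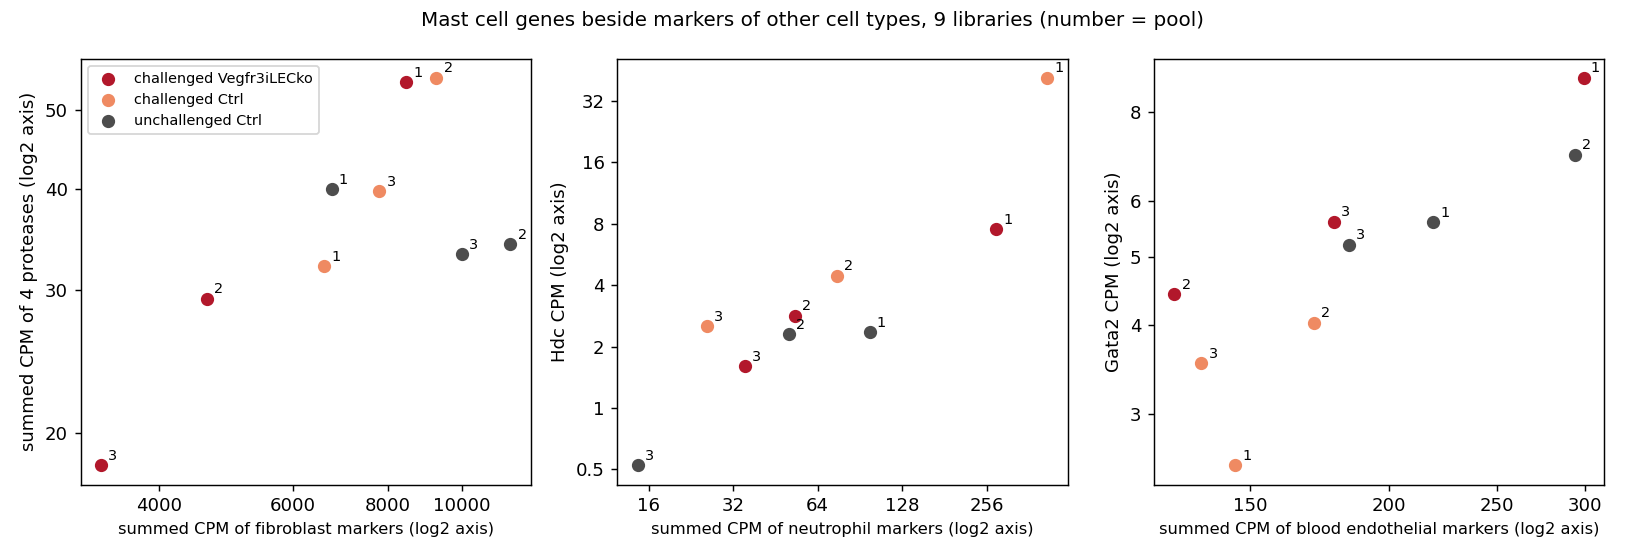
Summed CPM of the 4 proteases against fibroblast markers, Hdc against neutrophil markers and Gata2 against blood endothelial markers (both axes log2), with 1 numbered point for each pool in challenged Vegfr3iLECko, challenged Ctrl and unchallenged Ctrl. Hdc and the neutrophil sum were both highest in challenged Ctrl pool 1 (41.3 and 421 CPM), and Gata2 was highest where the endothelial sum was highest, in Vegfr3iLECko pool 1 (8.95 and 299 CPM).

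Other genes of mast cell biology gave the same picture of no call in any comparison. Of 10 tested genes for other mast cell receptors, 16 for signalling from the IgE receptor and Kit, 10 for granule storage, 5 for histamine handling, 7 for lipid mediators, 7 for transcription factors and 6 for growth factors, 0 passed in each of the 3 comparisons. With challenge the median log2 fold change was 0.67 for other receptors, 0.39 for signalling genes and 0.16 for granule storage, against -0.011 over all genes tested. By genotype the median was -0.52 for other receptors, -0.34 for signalling genes and -0.14 for granule storage, against 0.0027 over all genes. For the 7 mast cell genes the medians were 0.21 with challenge and -0.30 by genotype.

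None of the 16 signalling genes passed in any comparison. With challenge 15 of the 16 had a log2 fold change above 0, against 48.5% of all genes tested. By genotype 1 of the 16 did, against 50.4% of all genes. Both comparisons share the challenged Ctrl pools. Between challenged Vegfr3iLECko and unchallenged Ctrl 10 of the 16 were above 0, against 50.7% of all genes. Lyn, the kinase that starts signalling from the IgE receptor, was at 125, 121 and 96.1 CPM in challenged Vegfr3iLECko pools, 250, 182 and 139 CPM in challenged Ctrl pools and 117, 132 and 140 CPM in unchallenged Ctrl pools. Its Vegfr3iLECko pools lay below all challenged Ctrl pools (log2 fold change -0.74, SE 0.22, adjusted p = 0.380). By genotype 4 of the 16 genes had groups that did not overlap, all lower, against 12.9% of all genes in either direction. Lat, an adaptor of mast cells that T cells also use, was at 4.01, 3.36 and 2.74 CPM in challenged Vegfr3iLECko pools. It was at 18.4, 7.84 and 9.18 CPM in challenged Ctrl pools and at 2.72, 1.72 and 2.78 CPM in unchallenged Ctrl pools. With challenge its log2 fold change of 2.29 (SE 0.39, adjusted p = 0.0839) did not pass. Lat was named after its values were seen. The 7 T cell markers summed to 23.4 to 31.4 CPM in challenged Vegfr3iLECko, 79.9 to 156 CPM in challenged Ctrl and 12.0 to 18.6 CPM in unchallenged Ctrl pools. With challenge 3 of the 7 passed as higher, where 9 of all 15613 genes did. Many signalling genes of mast cells are T or B cell genes too, and which cells carried these reads was not tested.

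Among granule storage genes, 2 with a known part in histamine and protease storage are given by pool, named after their values were seen. Srgn, the core protein of the proteoglycan that holds proteases in granules and that many leukocytes make, was at 61.9, 24.4 and 18.1 CPM in challenged Vegfr3iLECko pools and 294, 39.8 and 30.9 CPM in challenged Ctrl pools. In unchallenged Ctrl pools it was at 39.9, 13.6 and 11.2 CPM, and like Hdc it was highest in challenged Ctrl pool 1. Slc18a2, the transporter that loads histamine into granules, was at 2.37, 2.01 and 1.26 CPM in challenged Vegfr3iLECko pools, 4.52, 3.54 and 2.79 CPM in challenged Ctrl pools and 4.87, 3.33 and 2.47 CPM in unchallenged Ctrl pools. Its Vegfr3iLECko pools lay below every Ctrl pool, and the log2 fold change by genotype of -0.94 (SE 0.39, adjusted p = 0.554) did not pass. By genotype 2 of the 10 tested storage genes had groups that did not overlap, both lower, against 12.9% of all genes in either direction. Rab27a, Hs6st1 and Ndst1, the most abundant genes of this list, are expressed by many cells, and none had a log2 fold change beyond 0.29 in size in any comparison.

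Reads of other mast cell protease genes were scarce. Mcpt2, a mucosal mast cell chymase, had 0 to 5 counts a pool, Ctsg 0 to 2 and Tpsg1 0 to 7. Tpsab1, listed by RefSeq as a transcribed pseudogene in the C57BL/6J genome, had 2 to 17 counts a pool. Mcpt1 and Mcpt9 were not analysed here. Part of the Mcpt4 and Cma1 transcripts is shared with related genes: 5.48% of the 50-base stretches of Mcpt4 also occur in Cma2 or Mcpt9 and 5.38% of those of Cma1 in Gm48934, so a small share of their reads could be split. Cpa3, Tpsb2, Kit and Gata2 shared 0 such stretches with another gene.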

How the data were processed

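The authors deposited a table of raw counts, whole numbers by gene symbol, for 9 libraries. Per the submitters' processing notes HISAT2, Bowtie2, DESeq2 and mm39 were used; versions, counting program, annotation and strand are not given in the sources. CPM values were scaled by TMM. The filter filterByExpr left 15613 of 20603 genes. A single edgeR quasi-likelihood fit without a replicate block held all 9 libraries (R 4.3.3, edgeR 4.0.16, limma 3.58.1). Tests were two-sided, with Benjamini-Hochberg adjustment over all genes tested and a threshold of 0.05, and p-values measure spread between pools of 3 mice. DESeq2 (1.42.0), other scalings, filters and sample choices were alternatives. The fit was tested on simulated data. The 8 genes and the 20 lists beside them were chosen with earlier results of these data known. By rule, named genes were the 8, Flt4, list members that passed or else up to 3 of the highest mean level, and the 8 genes most correlated with Cpa3. The 3 T cell markers that passed are given as a count only. Other genes were named outside this rule, after their values were seen. Challenged and unchallenged Ctrl pools of the same number went together by their data (correlations of deviations 0.245 to 0.488, 3 of 3 pairs above 0.1). The labels do not state a pairing, and the reported fit did not use one. With Vegfr3iLECko the same-number correlations were 0.318 to 0.339 for pools 1 and 3 and -0.147 to -0.089 for pool 2. Whether that group is paired was thus unclear. Lengths came from GENCODE M21 on GRCm38, another build than that of the counts.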

Additional observations from a re-analysis of the deposited data

How the results depend on the processing

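None of the 8 genes was called in any of 48 fits, which are the 3 comparisons under the reported settings and 15 alternatives; the lowest adjusted p was 0.0731 (Hdc with challenge, replicate block), against 0.233 without the block. Of 318 log2 fold changes of the 8 genes under alternatives, 305 kept their direction. The count of all genes called with challenge (10 by the reported edgeR fit) was 770 by DESeq2, 20 without a count filter, 267 with the replicate block, 1 in a fit of the 2 Ctrl groups, 476 with the block in those groups, and 0 to 121 with 1 pool left out (0 without unchallenged Ctrl pool 2 or 3, 121 without unchallenged Ctrl pool 1). By genotype it was 242 by DESeq2, 22 with the replicate block and 0 to 0 with 1 pool left out; between challenged Vegfr3iLECko and unchallenged Ctrl it was 14 by DESeq2.

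With 1 pool left out the log2 fold change with challenge was -0.093 to 0.63 for Cpa3, -0.048 to 0.40 for Mcpt4, 0.27 to 0.59 for Cma1, -0.11 to 0.24 for Tpsb2, -0.41 to -0.13 for Kit and 1.01 to 3.71 for Hdc, and that of Flt4 was -0.33 to 0.17. By genotype it was -1.37 to -0.014 for Cpa3, -0.88 to 0.096 for Mcpt4, -0.86 to -0.031 for Cma1, -0.44 to -0.065 for Tpsb2, 0.073 to 0.36 for Kit and -2.85 to 0.20 for Hdc. Between challenged Vegfr3iLECko and unchallenged Ctrl it was -1.08 to 0.25 for Cpa3, -0.67 to 0.30 for Mcpt4, -0.40 to 0.43 for Cma1, -0.38 to -0.021 for Tpsb2, -0.12 to 0.063 for Kit, 0.35 to 1.58 for Hdc and -0.24 to 0.30 for Gata2. Cma1 there was -0.027 with the replicate block in those 2 groups, an alternative added for single genes after seeing the data. The cause of these changes was not tested. The replicate block changed no call of the 8 genes. Same-number correlations of Vegfr3iLECko with the other groups were -0.147 to 0.339, so pairing there was unclear. Cpa3, Mcpt4, Cma1, Hdc and Gata2 had fewer than 100 counts in some pools, and Ms4a2 was tested only in fits without the count filter.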
